A study of Mus musculus with 6 samples.

Results

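The 10 genes described here encode glutathione peroxidases (Gpx1, Gpx3, Gpx4), glutathione transferases (Gstm1, Gsta4, Mgst1, Mgst3), the catalytic subunit of the enzyme that starts glutathione synthesis (Gclc) and the metallothioneins Mt1 and Mt2. They were taken by symbol: every probe set that the platform's gene table assigns to exactly 1 gene, and to a gene of this list, was included, which gave 18 probe sets for 10 of the 18193 named genes. Gene expression had been measured in gastrocnemius, the large calf muscle, of aged and young mice on 6 Affymetrix arrays, with 3 arrays of aged muscle (replicates 51, 52 and 53) and 3 of young muscle (replicates 1, 2 and 3). All mice were male, of the strain the labels give as C57B1/6 with a normal karyotype, and no genetic change or treatment is given for either group. The age of the mice was not given in what was used here. Nothing says that each array held a separate animal or whether RNA was pooled, so p-values reflect the variation among these 6 arrays, part of which may be technical.

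Glutathione is a small thiol peptide that cells keep at high concentration and use to reduce peroxides and to tag reactive compounds. Glutathione peroxidases reduce hydrogen peroxide or lipid peroxides at its expense, and Gpx1, Gpx3 and Gpx4 carry the rare amino acid selenocysteine in their active site. Glutathione transferases join glutathione to electrophiles such as the aldehydes that lipid peroxidation leaves behind, and the microsomal forms Mgst1 and Mgst3 sit in membranes. Metallothioneins are small cysteine-rich proteins that hold zinc and copper, and their genes respond to metals and to glucocorticoids. Of the 10 products only Gpx3 is secreted: it is the peroxidase of blood plasma and the extracellular space, whereas the others act inside cells.

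In aged muscle the secreted peroxidase Gpx3 rose 5.32-fold and the membrane transferase Mgst1 rose 2.85-fold. The Gpx3 call was lost in 6 of 20 alternative fits and the Mgst1 call in 12 of 19. None of the other 7 tested genes passed, and the metallothioneins were within 1.44-fold of young muscle. Log2 changes (aged minus young) were fitted with limma across 22519 probe sets, with limma's standard error, n = 3 per group and Benjamini-Hochberg adjustment over all of them at a threshold of 0.05. Each gene was represented by its probe set with the highest mean log2 signal over the 6 arrays. A brightness filter at a mean log2 signal of 9.08 removed 5 of the 18 probe sets, among them the only Gsta4 probe set. Of the 9 genes tested 2 were higher and 0 lower, where 0.391% of 11763 named genes were called higher and 1% lower, 1.39% in all (1.05% of all tested probe sets). These genes, and the lists further below, were chosen with earlier results of these data known. Such counts beside shares are therefore a description and no test of enrichment. The 3 aged arrays lay wholly above the 3 young arrays for 2 of the 9, where 17.2% of named genes had groups that did not overlap, 7.58% with aged above young. A positive change was seen in 8 of the 9, and in 50.2% of named genes. The median change of the 9 was 0.26, beside 0.0028 for all named genes tested.

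**Figure D1:**
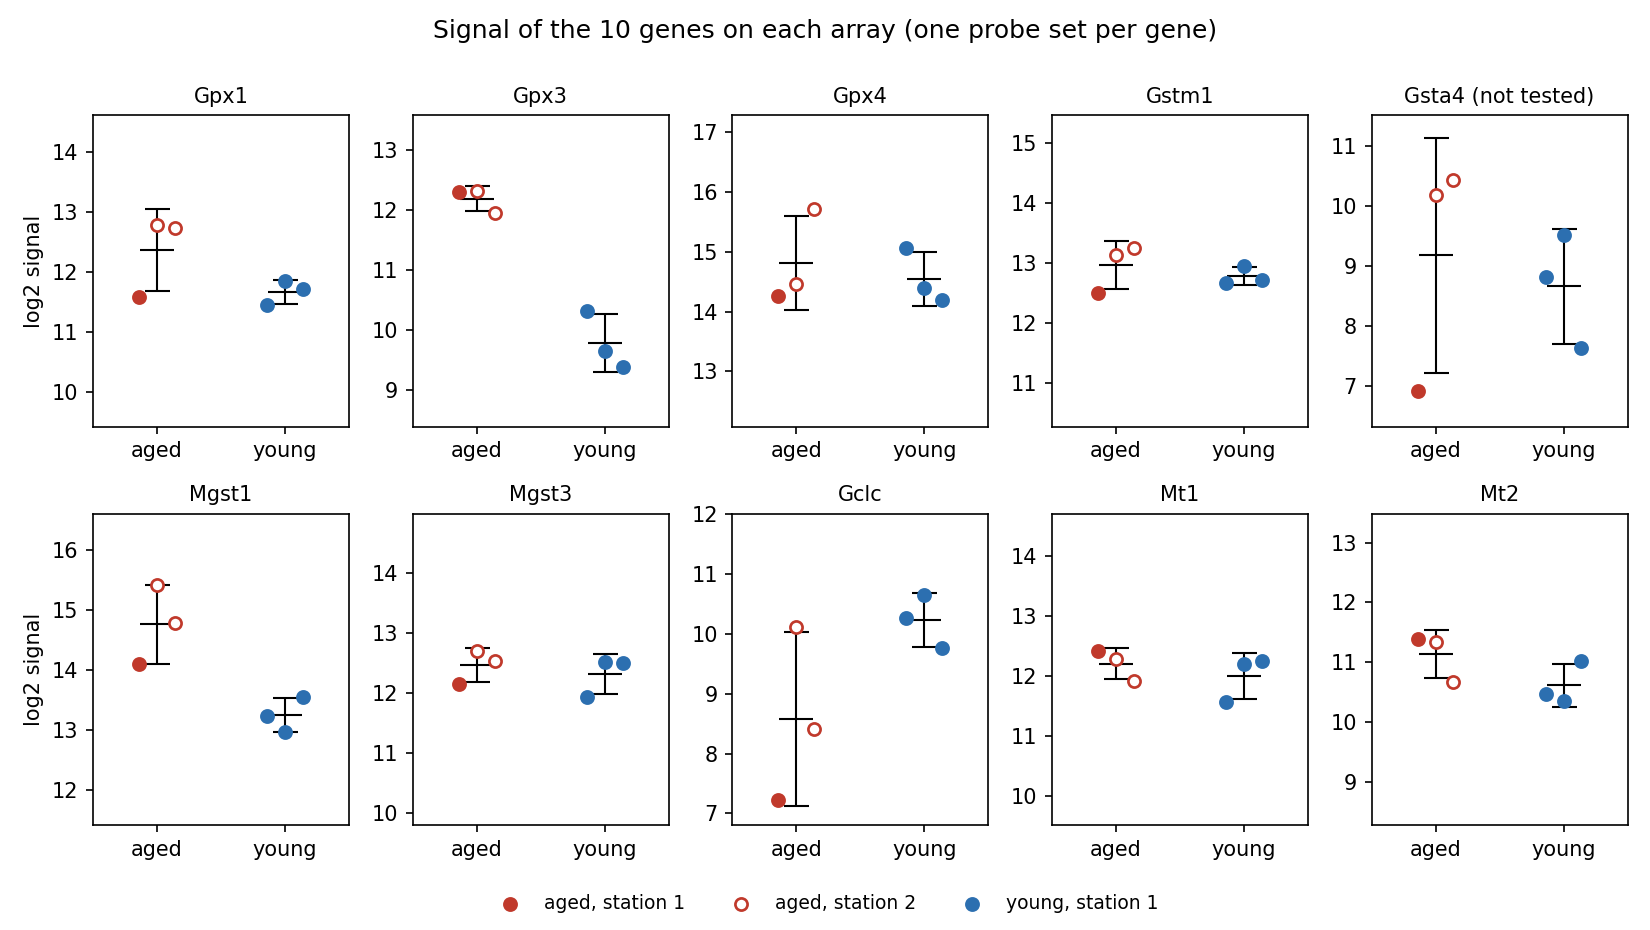
Log2 signal (vertical axis, the same span in every panel) of the brightest probe set of each of the 10 genes on the 3 aged and 3 young arrays, with mean and SD as a bar. Filled points were washed on fluidics station 1 and open points on station 2. Gpx3 and Mgst1 are the panels in which the 3 aged arrays lie above the 3 young arrays, and Gsta4 lay below the brightness filter and was not tested.

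Of the markers of fast fibres and muscle identity 8 of 8 were measured, none at 0, and their sum lay between 1551007 and 1763697 on aged arrays, against 2163025 to 2553563 on young arrays. Median signals ranged from 637 to 833 over the arrays. Station 1 of the fluidics washed the young arrays and aged replicate 51, and station 2 washed aged replicates 52 and 53. Since station 2 held no young array, a fit with station in the model rests on aged replicate 51 against the 3 young arrays and gives the same change as station 1 alone. It assumes that this 1 array varies like the others, and it is no correction for station. The log2 ratio of 3 prime to 5 prime control signal, a measure of RNA quality, averaged 2.33 on aged and 1.75 on young arrays, higher on 3 of 3 aged arrays (exact two-sided permutation p = 0.1, the smallest that 3 against 3 arrays allow).

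The sequences before the start sites of Gpx3 and Mgst1, the genes that passed, and of the neighbouring metallothionein genes are shown so that their sequences can be set beside their changes. Each is the 250 bases before a start site in RefSeq's mouse assembly GRCm38.p6, written 5′ to 3′ on the gene's strand. Capitals mark a match on either strand to the core of the metal response element (TGCACNC or TGCGCNC) or of the antioxidant response element (TGACNNNGC), and no matches of the 2 kinds overlapped. RefSeq's table held windows for 8 of the 10 genes.
Gpx3, chr11:54902604-54902853, plus strand: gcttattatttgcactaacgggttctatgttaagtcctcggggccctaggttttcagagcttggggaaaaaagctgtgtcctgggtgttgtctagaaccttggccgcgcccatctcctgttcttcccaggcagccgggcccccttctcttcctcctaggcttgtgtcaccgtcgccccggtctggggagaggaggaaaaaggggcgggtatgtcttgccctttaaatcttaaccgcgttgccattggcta
Mgst1, chr6:138140277-138140526, plus strand: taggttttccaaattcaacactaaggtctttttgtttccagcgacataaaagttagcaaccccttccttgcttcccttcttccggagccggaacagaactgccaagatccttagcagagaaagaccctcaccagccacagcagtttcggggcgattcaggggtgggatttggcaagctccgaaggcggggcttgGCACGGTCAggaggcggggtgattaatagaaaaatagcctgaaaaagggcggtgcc
Mt1, chr8:94178839-94179088, plus strand: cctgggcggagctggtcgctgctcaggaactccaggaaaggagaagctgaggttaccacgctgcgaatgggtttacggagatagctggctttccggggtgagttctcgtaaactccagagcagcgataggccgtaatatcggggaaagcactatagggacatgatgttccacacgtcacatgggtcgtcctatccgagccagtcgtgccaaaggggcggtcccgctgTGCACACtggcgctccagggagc
Mt2, chr8:94172368-94172617, plus strand: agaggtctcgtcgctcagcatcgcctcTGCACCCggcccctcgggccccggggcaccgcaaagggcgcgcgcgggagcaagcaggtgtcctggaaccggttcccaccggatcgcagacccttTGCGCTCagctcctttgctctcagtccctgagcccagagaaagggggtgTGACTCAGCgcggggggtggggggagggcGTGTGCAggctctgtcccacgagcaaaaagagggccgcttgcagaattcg
The Mt2 window held 3 metal element matches, first bases at -223, -128 and -50 from the start, and 1 antioxidant element match at -79. The Mt1 window held 1 metal element match at -23, and the Mgst1 window 1 antioxidant element match at -56. The Gpx3 window held neither motif in these letters. Among 32851 RefSeq windows of this length 21.4% held at least 1 metal element match, 1.26% held at least 3, and 10.2% held an antioxidant element match. A second Mgst1 start site had neither motif. RefSeq's Mt1 entry begins at 94178883, inside the window shown, so most of that window lies within the entry. The bases before 94178839 were not searched. The Mt1 count is therefore not one for the sequence before the entry and cannot be set against that of Mt2.

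Gpx3 was the only glutathione peroxidase of the 3 that passed. It had signals of 5013, 5101 and 3949 on aged arrays 51, 52 and 53, against 1267, 797 and 666 on young arrays 1, 2 and 3. The lowest aged array was 3949 and the highest young array 1267, so the groups were far apart. The change was 2.41 ± 0.39, a 5.32-fold rise with a 95% interval of 2.93 to 9.63 (limma, adjusted p = 0.00863). Of all tested probe sets 0.88% had a larger change in either direction. In whole muscle a change in the share of a cell type and a change of RNA per cell cannot be told apart.

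The change of Gpx3 kept its size over 20 alternatives, and its call did not hold in 6 of them, of which 2 are the station fits that share 1 estimate. It lay between 2.15 and 2.70. It did not pass without the trend of spread with brightness (adjusted p = 0.179), with an unmoderated linear model (adjusted p = 0.21) or without aged replicate 52 (2.34, adjusted p = 0.0713). Aged replicate 51 alone against the young arrays gave 2.52 (adjusted p = 0.0593 with station in the model and 0.0976 on station 1 alone). With the 3 prime to 5 prime ratio as a covariate it was 2.70 (adjusted p = 0.0835).

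Gpx1, the abundant peroxidase of cytosol and mitochondria, had signals of 3051, 7073 and 6784 on the aged arrays, against 2800.3, 3674 and 3344 on the young arrays. Aged replicates 52 and 53 lay above all young arrays, and aged replicate 51 lay among them. The change of 0.70 ± 0.36 did not pass (adjusted p = 0.546 by limma), with a 95% interval of -0.08 to 1.47. On station 1 alone, where aged replicate 51 faces the young arrays, it was -0.09.

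Gpx4, which reduces lipid peroxides within membranes and guards against ferroptosis, had signals of 19678, 22440.0 and 53560.3 on the aged arrays, against 34099.5, 21406 and 18756 on the young arrays. Aged replicate 53 was the highest of the 6, and the other aged arrays lay among the young arrays. The change was 0.26 ± 0.35 (limma, adjusted p = 0.832, 95% interval -0.51 to 1.03), and the other Gpx4 probe set was at -0.0032 ± 0.29. The Gpx4 change was negative for aged replicate 51 alone against the young arrays (-0.28) and with the 3 prime to 5 prime ratio as a covariate (-0.65).

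The extracellular enzyme was set against the intracellular ones within each array, since 1 scaling factor for a whole array cancels in such a difference. Effects that depend on brightness do not cancel. The level of this difference reflects the probe sets, and its shift between groups shows unequal change. Gpx3 minus Gpx1 was 0.72, -0.47 and -0.78 log2 units on the aged arrays, against -1.15, -2.20 and -2.33 on the young arrays. Gpx3 minus Gpx4 was -1.97, -2.14 and -3.76 on the aged arrays, against -4.75, -4.75 and -4.82 on the young arrays. In both pairs the 3 aged arrays lay above the 3 young arrays, by 1.71 (aged mean -0.18 ± 0.79, young mean -1.89 ± 0.65, SD, n = 3 each) and by 2.15 (aged mean -2.62 ± 0.99, young mean -4.77 ± 0.04, SD, n = 3 each). The exact two-sided permutation p was 0.1 for each pair and 0.1 after adjustment over the 2 pairs, the smallest that this design allows. With aged replicate 51 as the only aged array the differences were 2.61 and 2.80. The same was computed for the other 6 tested intracellular genes after the values had been seen. Gpx3 minus Mgst1 was -1.80, -3.09 and -2.83 on the aged arrays, against -2.93, -3.32 and -4.16 on the young arrays, so the groups overlapped and the shift was 0.90 (exact two-sided permutation p = 0.2). Aged arrays lay above young arrays in the other 7 of the 8 pairs, with shifts up to 4.05 for Gclc, and the exact permutation p of 0.1 was 0.114 after adjustment over the 8. All 8 pairs share Gpx3, whose own aged and young arrays did not overlap, so they are not 8 separate results. The share of all named genes that would give such a pair with Gpx3 was not computed. Among the 8 tested intracellular genes 7 had a positive change, from 0.15 to 1.51, and Gclc was at -1.64, with a median of 0.23 over the 8.

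**Figure D2:**
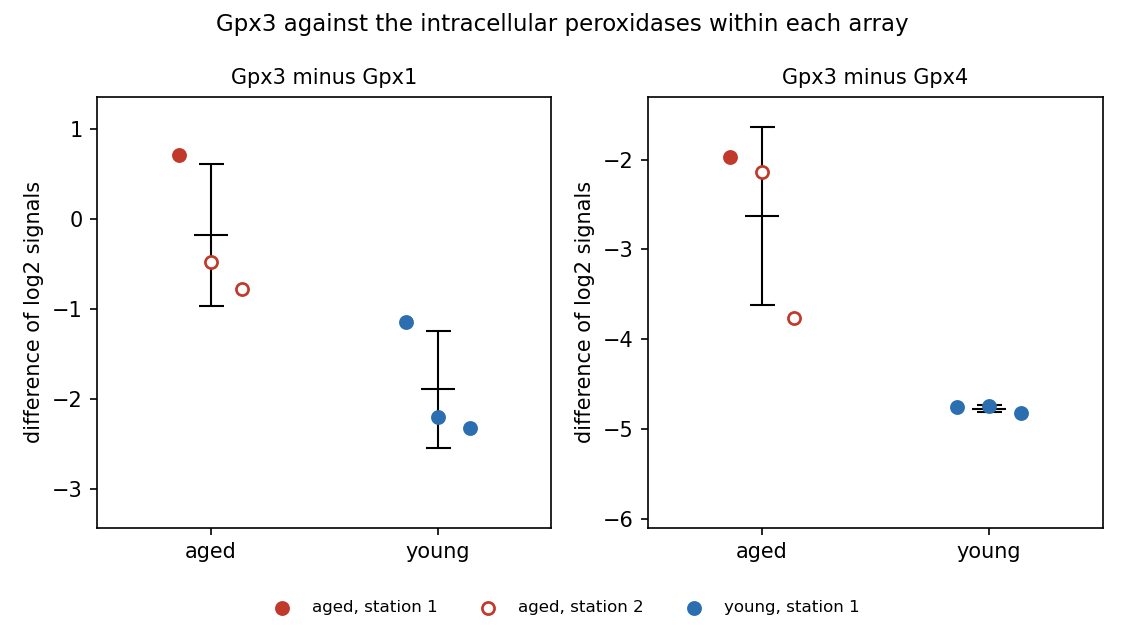
Difference of log2 signals within each array (vertical axis), Gpx3 minus Gpx1 on the left and Gpx3 minus Gpx4 on the right, for 3 aged and 3 young arrays with mean and SD. Filled points are station 1 and open points station 2. In both panels all aged arrays lie above all young arrays, by 1.71 and 2.15 on average.

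Of the membrane-bound transferases Mgst1 passed and Mgst3 did not, and the difference between them was not tested. Mgst1, a transferase and peroxidase of the outer mitochondrial and endoplasmic reticulum membranes, had signals of 17487, 43378 and 28045 on the aged arrays, against 9634, 7974 and 11904 on the young arrays. The groups did not overlap, and aged replicate 51 was the lowest of the aged arrays. The change was 1.51 ± 0.31, a 2.85-fold rise with a 95% interval of 1.79 to 4.55 (limma, adjusted p = 0.0371). The other Mgst1 probe set was dim and spread from 40.1 to 1404 over the 6 arrays, and gave -0.26 ± 1.43 in a fit without the filter.

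The call for Mgst1 did not hold in 12 of 19 alternatives, of which 2 are the station fits that share 1 estimate. It did not pass without aged replicate 52 or 53 or young replicate 1, 2 or 3 (change 1.19 to 1.66, adjusted p 0.0609 to 0.2), nor after median centring (1.40, adjusted p = 0.145) or with the 3 prime to 5 prime ratio as a covariate (1.59, adjusted p = 0.192). Aged replicate 51, the lowest aged array, alone against the young arrays gave 0.85 (adjusted p = 0.307 with station in the model and 0.213 on station 1 alone). Averaged over both probe sets the change was 0.62 (adjusted p = 0.814).

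Mgst3, a microsomal enzyme with transferase and peroxidase activity, had signals of 4549, 6678 and 5960.1 on the aged arrays, against 3936, 5880.1 and 5778 on the young arrays. The groups overlapped, and the change was 0.15 ± 0.29 (limma, adjusted p = 0.89), with a 95% interval of -0.47 to 0.77. Its other probe set was too dim to test.

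Among the soluble transferases, Gstm1, the main mu class enzyme, had 4 tested probe sets and none passed. The brightest had signals of 5818, 8966 and 9749 on the aged arrays, against 6537, 7937 and 6736 on the young arrays, with a change of 0.18 ± 0.27 (limma, adjusted p = 0.846). The other 3 probe sets were at 0.62 ± 0.31, 1.46 ± 0.59 and 0.82 ± 1.00, so all 4 were positive and all had overlapping groups. The probe set at 1.46 had 3897, 3494 and 1189 on the aged arrays, against 497, 1663 and 939 on the young arrays (limma, adjusted p = 0.422). Mu class genes are close in sequence. The brightest Gstm1 probe set is of a kind prone to cross-hybridisation, as are those of Gpx4, Gclc and Mt1, so their signals may include relatives. That of Mgst1 was grouped with them (5 of the 9 tested), but its name ends in _a_at, which marks several transcripts of 1 gene. With aged replicate 51 as the only aged array the brightest Gstm1 probe set was at -0.28.

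Gsta4, which conjugates the lipid aldehyde hydroxynonenal, had signals of 121, 1166 and 1376 on the aged arrays, against 449.7, 734 and 199 on the young arrays. Both groups ranged widely and overlapped, and the mean log2 signal of 8.92 lay just below the filter. Fitted without the filter, the change was 0.52 ± 1.09 (limma, adjusted p = 0.948).

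Gclc, the catalytic subunit of glutamate-cysteine ligase, had signals of 149, 1108 and 339 on the aged arrays, against 1226, 1609 and 865 on the young arrays. Aged replicates 51 and 53 lay below all young arrays, and aged replicate 52 lay among them. The change of -1.64 ± 0.88 was the only negative one among the 9 tested genes and did not pass (limma, adjusted p = 0.565, 95% interval -3.55 to 0.27). The other Gclc probe set, below the filter, was at 0.25 ± 1.12, so the probe sets differed in sign.

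Neither metallothionein passed. Mt1 had signals of 5489, 4955 and 3875 on the aged arrays, against 3024, 4703 and 4865 on the young arrays. Young replicate 1 was the lowest of the 6 and the other 5 arrays lay between 3875 and 5489. The change was 0.20 ± 0.30 (limma, adjusted p = 0.847, 95% interval -0.46 to 0.86), and the other, dim Mt1 probe set was at -0.46 ± 0.96. Mt2, whose gene lies beside Mt1 on chromosome 8, had signals of 2696, 2608 and 1639 on the aged arrays, against 1413, 1311 and 2086 on the young arrays. Aged replicates 51 and 52 lay above all young arrays, and aged replicate 53 lay among them. The change was 0.53 ± 0.41 (limma, adjusted p = 0.701), with a 95% interval of -0.36 to 1.41, so a change of up to 2.66-fold lay within it.

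**Figure D3:**
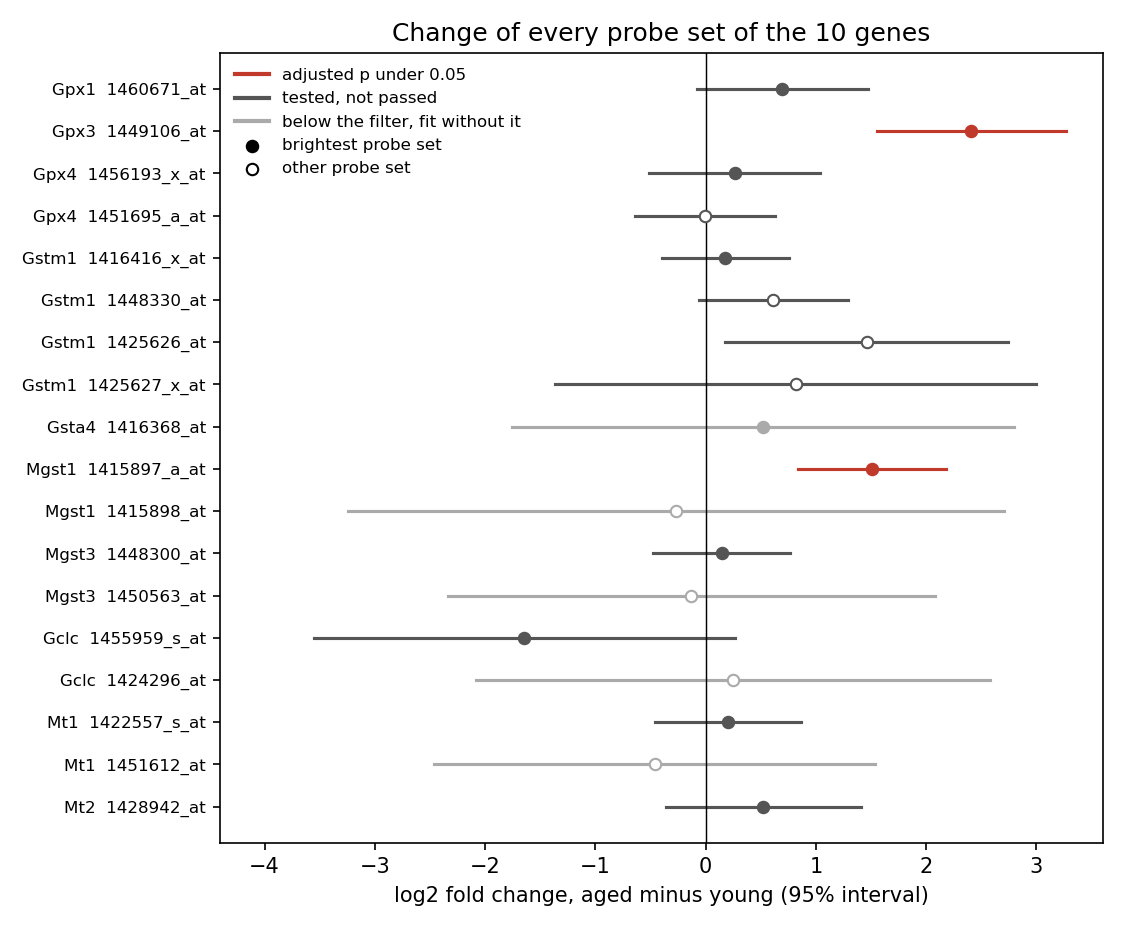
Log2 fold change, aged minus young, with limma's 95% interval (horizontal axis) for all 18 probe sets of the 10 genes. Filled points are the brightest probe set of a gene and open points the others. Red marks an adjusted p under 0.05, dark grey a tested probe set that did not pass, and light grey a probe set below the brightness filter, taken from a fit without it. The 2 red intervals are Gpx3 at 2.41 and Mgst1 at 1.51.

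Other genes of the glutathione system were read from the same fit. Of 16 measured genes of glutathione synthesis and recycling 1 rose, 0 fell and 15 did not pass, with a median of 0.02, beside 1.39% of all named genes called in either direction. The gene that rose was Pgd, phosphogluconate dehydrogenase of the pentose phosphate pathway, which supplies the NADPH that regenerates glutathione. It had 31922, 44913 and 26952 on the aged arrays, against 10396, 10484 and 16430.4 on the young arrays, a change of 1.48 ± 0.26 (limma, adjusted p = 0.0151). Its call was lost in 8 of 18 alternatives, of which 2 are the station fits that share 1 estimate (1.39). Among them were leaving out aged replicate 52 or young replicate 1 or 2 (adjusted p 0.0926 to 0.114) and median centring (adjusted p = 0.057). The call was also lost without the trend (adjusted p = 0.402) and with an unmoderated linear model (adjusted p = 0.344). This probe set, 1 of 4 for Pgd, is of a kind prone to cross-hybridisation. Without such probe sets the list held 0 called genes. The regulatory ligase subunit Gclm was at -0.85 ± 0.94 and the glutaredoxin Glrx at -0.95 ± 0.94, and neither passed.

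Of 16 measured other peroxidases and transferases 0 passed by limma, 11 had a positive change and the median was 0.31. The membrane transferase Mgst2 came nearest, with 5172, 7531 and 4928 on the aged arrays, against 1646, 2526 and 2392 on the young arrays. Its groups did not overlap, and the change of 1.42 ± 0.32 missed the threshold (limma, adjusted p = 0.0697). The alpha class transferase Gsta3 was at 0.94 ± 0.67 and the endoplasmic reticulum peroxidase Gpx8 at -1.13 ± 0.63. Of 16 measured dismutases, catalase, peroxiredoxins and thioredoxins 0 passed, and the median was 0.03. The largest changes there were -1.03 ± 1.15 for the extracellular superoxide dismutase Sod3, -0.78 ± 0.26 for the peroxiredoxin Prdx2 and 0.71 ± 0.28 for Txnip, which binds and inhibits thioredoxin.

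The transcription factor NRF2, encoded by Nfe2l2, drives many glutathione genes through the antioxidant response element. Of 13 measured genes of NRF2 and its targets 0 passed, and the median was 0.01. The quinone reductase Nqo1 had 2042, 2033 and 2511 on the aged arrays, against 1249, 267 and 176 on the young arrays. Its groups did not overlap, and the change of 2.49 ± 0.75 did not pass (limma, adjusted p = 0.212). Me1, the cytosolic malic enzyme that supplies NADPH for lipid synthesis, was at 2.20 ± 0.53 (limma, adjusted p = 0.0942). A positive change was seen in 7 of the 13. Nfe2l2 itself was at -0.66 ± 0.30, with the aged arrays below the young arrays, and Gclm at -0.85 ± 0.94. Neither passed. Of 15 measured selenoproteins and genes of their synthesis 0 passed, with a median of -0.07. Selenoo was at -1.56 ± 0.89, the deiodinase Dio2 at -1.01 ± 0.61 and Secisbp2, which binds the selenocysteine insertion element, at 0.90 ± 0.56.

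Genes of metal handling and of the glucocorticoid response were set beside the metallothioneins. Among 20 measured zinc and copper genes the test called 1 lower, 0 higher and left 19 uncalled, beside 1% of all named genes called lower and 0.391% higher. A positive change was seen in 4, and the median was -0.30. The gene that fell was Slc39a1, a zinc importer of the cell surface, with 18825, 15804 and 12059 on the aged arrays, against 39937, 34089 and 41303 on the young arrays. The change was -1.32 ± 0.22 (limma, adjusted p = 0.011). It missed the threshold in 9 of 19 alternatives, of which 2 are the station fits that share 1 estimate (-1.03). It did so without aged replicate 52 or young replicate 1, 2 or 3 (adjusted p 0.0513 to 0.0796). The same held with the 3 prime to 5 prime ratio as a covariate (-0.97, adjusted p = 0.172), without the trend (adjusted p = 0.395) and with an unmoderated linear model (adjusted p = 0.263). The zinc importer Slc39a6 was at -1.41 ± 0.59 and the copper importer Slc31a1 at -1.29 ± 0.67, and neither passed.

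Of 15 measured glucocorticoid genes 2 rose, 0 fell and 13 did not pass, with a median of 0.08. Of all named genes 0.391% were called higher and 1% lower. Hsd11b1, which regenerates active glucocorticoid, had 6177, 10232 and 6628 on the aged arrays, against 1783, 792 and 723 on the young arrays. The muscle ubiquitin ligase Fbxo32 had 16025, 25906 and 37946 on the aged arrays, against 5394, 3954 and 1932 on the young arrays. Their changes were 2.89 ± 0.41 (limma, adjusted p = 0.00368) and 2.86 ± 0.39 (limma, adjusted p = 0.0027). Hsd11b1 and Fbxo32 each missed the threshold in 5 of 19 alternatives, of which 2 are the station fits (2.62 and 2.21). With the 3 prime to 5 prime ratio as a covariate they were at 3.18 (adjusted p = 0.0565) and 2.30 (adjusted p = 0.121). Without the trend their adjusted p was 0.179 and 0.224, and with an unmoderated linear model 0.278 and 0.333. The clock gene Per1 was at 1.65 ± 0.73 and did not pass. A positive change was seen in 8 of the 15. Ddit4 was at -1.29 ± 0.30 (limma, adjusted p = 0.0803) and Errfi1 at -1.07 ± 0.27 (limma, adjusted p = 0.107). For both, the aged arrays lay below the young arrays, and neither passed.

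**Figure D4:**
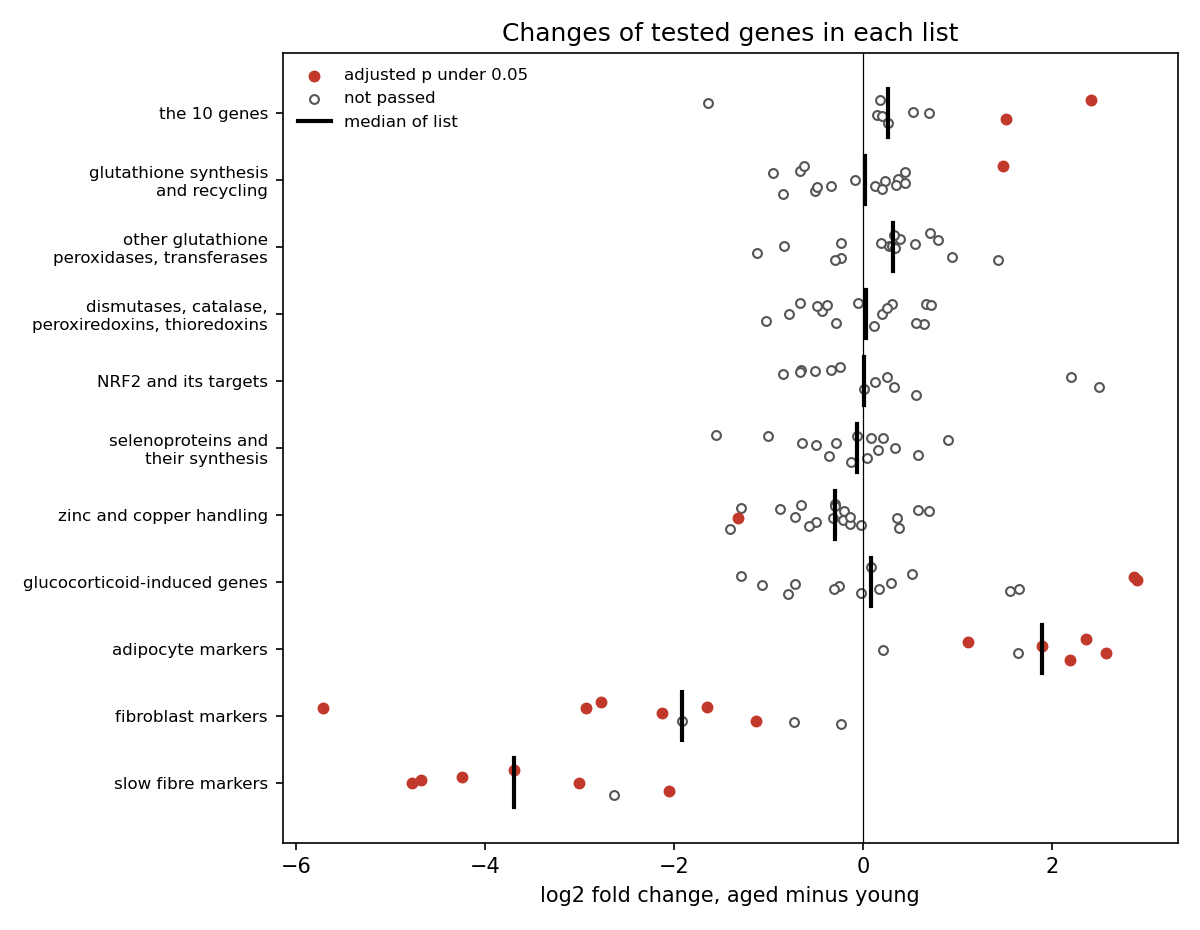
Log2 fold change, aged minus young (horizontal axis), of each tested gene of the 10 and of 10 lists, with the median of a list as a bar. Red points passed an adjusted p of 0.05 and open points did not. The medians of the 7 pathway lists lie between -0.30 and 0.31, and those of adipocyte, fibroblast and slow fibre markers at 1.89, -1.91 and -3.69.

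Markers of other cells in the muscle differed between the same arrays. The counts below stand beside 0.391% of all named genes called higher and 1% called lower. Fat tissue is known to express Gpx3 well. Of 7 measured adipocyte markers 5 rose and 0 fell, and the summed signal of the 8 named markers was 173715, 306902 and 213010 on the aged arrays, against 91539, 79469 and 95925 on the young arrays. None of the 8 was at 0. The adipokine Adipoq was at 1.89 ± 0.30. Fibroblast markers went the other way, with 6 of 9 lower and sums of 98617 to 102243 on aged arrays, against 421719 to 706292 on young arrays. A large part of the young sums came from Col1a1 alone. It had 8267, 4488 and 5205 on the aged arrays, against 221270, 249237 and 501199 on the young arrays. Pdgfra was at -0.23 ± 0.31, with overlapping groups, and did not pass. Slow fibre markers were lower in 6 of 7, with sums of 13857 to 19620 on aged arrays, against 121904 to 150536 on young arrays. Of 8 measured macrophage markers 1 rose, Lgals3 at 3.34 ± 0.67, and the sums of the 10 named ones were 75708 to 120549 on aged arrays, against 68967 to 94594 on young arrays. Of 5 measured endothelial markers 0 passed, and the 3 named red cell markers all lay below the filter. The part of these cell types in the changes of Gpx3 and Mgst1 was not tested.

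The genes whose signals ran most like those of a member over the 6 arrays were picked by Pearson correlation among 11097 named genes, as a description only. For Gpx3 these were the F-box protein Fbxo11 (r = 0.99, change 0.94), Hsd11b1 (r = 0.99, change 2.89) and the translation factor Eif5 (r = 0.99, change 0.81). For Gpx1 they were Hsd17b12, which elongates fatty acids (r = 0.99, change 0.51), the DNA repair and proteasome shuttle factor Rad23b (r = 0.98, change 0.15) and Ppp1r3c, which targets a phosphatase to glycogen (r = 0.98, change 1.51). For Mt1 they were Gpank1, Mob3c and the transcription factor Myb, with r of 0.99 each and changes of 0.50, 0.57 and 0.50. Of these 9 genes Hsd11b1 alone passed the test, and all values share the same 6 arrays.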

How the data were processed

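Total RNA of gastrocnemius was labelled with biotin and hybridised to 1 Affymetrix array per sample, per the labels' protocols. The authors deposited a linear intensity for each probe set. The submitters' processing notes name MAS5, whose version is not given in the sources used here. Each column averages 1500 once 2% is trimmed from both ends, a common scaling. The run settings deposited with each array, which hold other values than expression, were used for the fluidics station. The 6 arrays held 0 identical pairs. Their number limits the precision.

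Intensities were taken to log2, and 64 control probe sets were left out. The comparison of aged with young used limma 3.58.1 under R 4.3.3 (lmFit, eBayes with a trend, two-sided). Tables and figures were made with pandas 2.3.3, numpy 2.4.6 and matplotlib 3.10.9 in Python 3.11.15. The platform's table names 34945 probe sets with 1 gene and 932 with several, which stayed unnamed, and 0 symbols needed an update. Fits were tested on simulated data. Members and lists were chosen with earlier results of these data known. The text names the 10 genes. Of each pathway list it names the genes that passed and, if fewer than 3 did, those with the largest change up to 3. Ddit4, Errfi1 and Nfe2l2 are named as well for their lower signals on aged arrays. Of the marker lists only some genes are named, by no fixed rule, and most that passed are not. Alternatives were other scalings, filters, a pseudocount of 219, other estimates of spread, array weights, station or RNA quality as a covariate, leaving out each array or cross-hybridising probe sets, and averaging a gene's probe sets. The fit on station 1 alone was chosen after seeing the data. Probe sets whose names end in _x_at, _s_at or _a_at were counted as cross-hybridising. The ending _a_at marks several transcripts of 1 gene, so leaving these out also removed gene-specific probe sets.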

Additional observations from a re-analysis of the deposited data

How the results depend on the processing

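Median centring put the median of the 22519 changes at -0.11 and quantile normalization at -0.02, beside 0.0079 for the values as scaled by the authors. Over all tested probe sets 237 were called. This total was 21 without the trend, 0 with an unmoderated linear model (2262 had an unadjusted p under 0.05 in the limma fit), 138 with the 3 prime to 5 prime ratio as a covariate, 136 without probe sets prone to cross-hybridisation and 365 on station 1 alone, and 124 to 342 with each array left out. The number of members called was 2 (Gpx3 and Mgst1), and it was 1 after median centring, 1 without cross-hybridising probe sets and 1 with probe sets averaged. It was 0 without the trend, with the unmoderated model, with the station or the ratio as a covariate and on station 1 alone, and 0 to 2 with each array left out. Fewer probe sets were tested without cross-hybridising ones, and no Mgst1 probe set was among them. Both station settings set the same 1 aged array against 3 young ones. For the other settings the cause was not tested. Gpx3 minus Gpx1 ranged from 1.27 to 2.61 over 12 alternatives and Gpx3 minus Gpx4 from 1.82 to 2.80 over 11, positive in each. The change of Gpx3 was positive in 20 of 20 alternatives and that of Mgst1 in 19 of 19, between 0.62 and 1.85. Gpx1, Gpx4, Gstm1, Mgst3 and Mt1, none of which passed, were negative in at least 1 alternative. No paired analysis was possible because aged and young replicates share no numbers. Dim probe sets (Gsta4 and the second ones of Mgst1, Mgst3, Gclc and Mt1) had standard errors of 0.96 to 1.43, so only large changes could have been seen there.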
